A study of Mus musculus with 12 samples.

Results

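The comparison was between the EGFP high and the EGFP low cells of the mouse liver, the 2 brightest gates of a Sox9EGFP reporter sort. Livers came from C57Bl/6 mice carrying the Sox9EGFP transgene that had been fasted for 16 h, and dissociated cells were sorted by EGFP into neg, sub (between neg and low), low and high populations. All groups carry the transgene, no group received another treatment, and the labels give neither the animals' age nor the construct. Each library was made from 12000 cells, and 6 of the 12 libraries enter here, 3 high and 3 low. Of 54227 gene symbols in the table, the 1947 whose normalised counts averaged at least 1000 over these 6 libraries were kept. The mean was 1000 for Stx5a and Txndc16, just inside this limit, and 999.9 for Srsf1 and 999.3 for Ddx27, just outside it. Sample descriptions carry 3 suffixes that recur in every population, but the labels do not say whether these mark animals, so p-values measure the spread between these libraries, which may be technical.

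Cholangiocytes are the epithelial cells that line the bile ducts, and they modify bile by secretion and absorption. SOX9 is a transcription factor of this epithelium, so reporter brightness serves to divide it into populations. YAP, the effector of the Hippo pathway, works with TEAD factors on genes such as Ccn1 and Ankrd1. Immediate early genes (the FOS, JUN and EGR families) are induced within a short time by growth factors or by tissue dissociation, and heat shock genes encode chaperones that refold proteins under stress.

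In both groups the recovered reads were similar, 10934801 to 13856809 in high and 13455495 to 14716505 in low, and between 9217 and 12687 genes were above 0 per library. The 1947 genes took 74.4% to 76.7% of the summed values, and 1922 of them were above 0 in all 6 libraries. Libraries did not group tightly by gate. Over these genes the correlation of log2 values between libraries, a description across genes that are not independent, averaged 0.724 within high, 0.601 within low and 0.611 between the gates. Low 1 stood apart from its gate: it correlated at 0.792 with high 1 and 0.731 with high 2, but at 0.621 with low 2 and 0.639 with low 3. These 3 libraries (low 1, high 1 and high 2) also had the most genes above 0, 11681 to 12687 against 9217 to 9729 in the other 3, and the part of this in the results was not tested. The biliary label held in both groups: the 20 identity genes summed to 182273 ± 6146 (SD, n = 3) in high and 192032 ± 8246 in low, against 2329 ± 981 in neg. Sox9 reached 11793, 13969 and 13497 in the high libraries 1, 2 and 3 and 8838, 10313 and 17140 in the low libraries, so the groups overlapped although they had been sorted on its reporter. The log2 difference of Sox9, high minus low, was 0.17 (limma SE 0.76, adjusted p = 1).

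Among the 1947 genes, 152 (7.81%) had all 3 high libraries above all 3 low libraries and 144 (7.4%) had all 3 below, together 296 (15.2%). These genes are called higher and lower in high here. Their median log2 difference was 0.83 (0.15 to 3.60) for the higher genes and -0.93 (-10.71 to -0.23) for the lower genes, against 0.02 over all 1947. Without low 1, where fewer libraries make separation easier, 254 genes were higher and 296 lower. The means differed at least 2-fold for 48 of the higher and 62 of the lower genes. In 51 of the 296 genes the high mean was under 1000, and in 42 the low mean was. Part of these genes thus passed the limit through 1 group. Among the separated list members named below, Krt19, Cldn4, Car2, Lamc1 and Eif6 had such a mean in high. Egr2, Dusp6, H2-Q4 and Apob had one in low. These list members had to differ, and their separation is given as a description and not as support.

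No gene passed an adjusted p of 0.05 in the test of the design, limma on log2(normalised count + 1) over all 12 libraries (0 of 16128 genes, 0%), which does not show that levels were the same. At an unadjusted p under 0.05 it gave 684 genes (4.24%), 68 of them among the 1947. Restricting limma to the 6 high and low libraries and the 1947 genes, an alternative, called 5 genes (0.257%): Krt19, Lmo7, Hspa1a and Hspa1b fell in high and Atf3 rose. Krt19 reached the limit of 1000 only through low (means 782.9 in high and 5795 in low), so its place among these genes required a difference, and its p-values, and its calls when libraries are left out, are given as descriptions and not as support. At an unadjusted p under 0.05 it gave 167 genes (8.58%). This alternative's log2 differences equal those of the 12-library fit, but its standard errors come from the high and low libraries alone and its p-values are adjusted over fewer genes. The same 6 libraries without the limit of 1000 gave 0 calls, with an adjusted p of 0.775 for each of the 5 genes. Its calls were not stable to the loss of a library: none passed without high 2 or without low 1, and between 1 and 3 genes passed without any other library. Krt19 kept its call without high 1, high 3 or low 2, Hspa1a without high 3 or low 2 and Hspa1b without low 2, whereas Lmo7 and Atf3 lost theirs whichever library was left out. Without low 3 the gene that passed was Ccn1, which is not among the 5. On recovered reads of 10 libraries, edgeR called 74 genes (0.459%), 16 higher and 58 lower, and DESeq2 called 678, 245 higher and 433 lower. Of these, 5 and 4 were among the 1947 genes, and Hspa1b was the only gene called both by edgeR and by the 6-library fit. All adjusted p-values for genes below are from limma unless another tool is named.

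**Figure D1:**
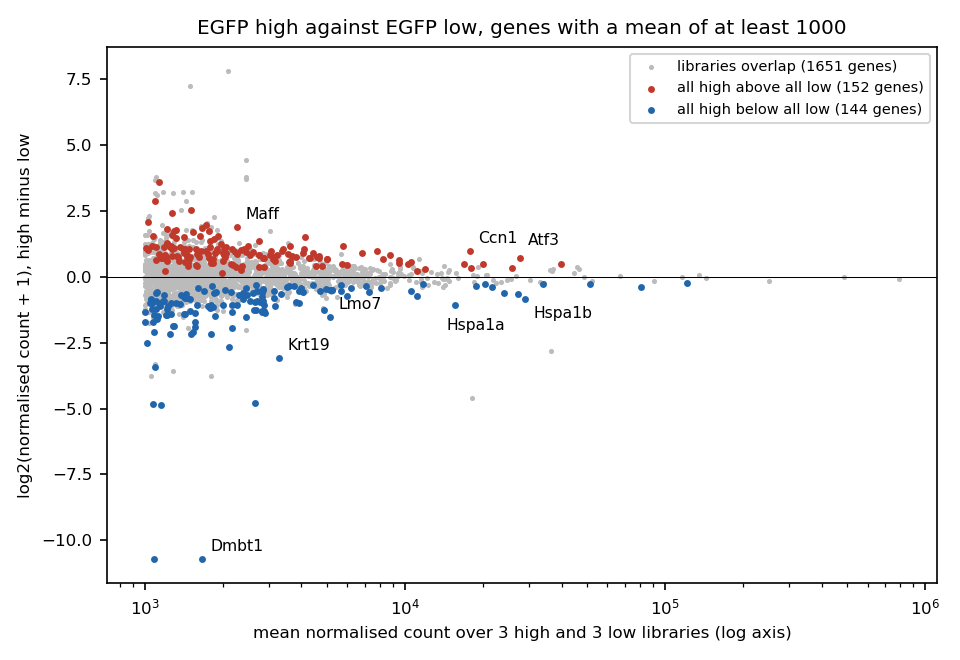
Each point is 1 of the 1947 genes, with its mean normalised count over the 6 libraries on the x axis (log scale) and the log2 difference, high minus low, on the y axis. Red points (152 genes) have all high libraries above all low libraries and blue points (144 genes) the reverse; grey genes overlap, and most differences lie near the median of 0.02.

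The biliary keratins did not move together. Krt19, a keratin of duct cells and of epithelial progenitors, stood at 1415, 448.7 and 485.1 in high and at 6631, 4936 and 5820 in low. Every high library lay well below every low library, and the mean was 7.4-fold lower in high, where it lay under the limit of 1000. With 1 library left out this fold ranged from 6.1 (without high 2) to 12.4 (without high 1). The gene lies at chr11:100140810-100148665 (minus strand, GRCm38), with no other annotated gene over it. Its log2 difference was -3.09 (SE 0.47, adjusted p = 0.0169 in the 6-library fit; SE 1.35, adjusted p = 1 in the 12-library fit). The other simple-epithelial keratins overlapped between the gates. Krt8 had means of 46590 ± 3928 (SD, n = 3) in high and 42508 ± 4624 in low. Krt18, its partner in the filament, had means of 20853 ± 1274 and 22744 ± 3274. Krt7, another duct keratin, read 1198, 1346 and 384.7 in high and 943.3, 1909 and 851.5 in low.

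Of 16 biliary identity genes at this level, 2 were higher (12.5%, against 7.81% of all 1947) and 4 lower (25%, against 7.4%) in high, with a median log2 difference of -0.19. Beside Krt19, the lower genes included Epcam and Tspan8. Epcam, an adhesion molecule used to isolate bile duct cells, read 4921, 4212 and 3487 in high and 5498, 6061 and 5585 in low. Tspan8, a membrane tetraspanin, read 1378, 1406 and 1939 in high and 3140, 3354 and 4776 in low. Both genes were separated by library, but neither passed either limma fit. The higher genes were Pkhd1 and Sorbs2. Pkhd1 encodes fibrocystin, a protein of the primary cilium mutated in recessive polycystic kidney and liver disease, and read 11167, 13154 and 11654 in high against 8617, 7651 and 9630 in low (log2 0.48, adjusted p = 0.469 in the 6-library fit). Sorbs2, an adaptor of the actin cytoskeleton, had means of 13113 ± 1441 and 10781 ± 552.8 (adjusted p = 0.669 in the 6-library fit). Its separation was narrow, with 11461 in high 2 barely above 11358 in low 2. Spp1, the secreted osteopontin, overlapped, with means of 30687 ± 5108 in high and 35181 ± 7404 in low.

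**Figure D2:**
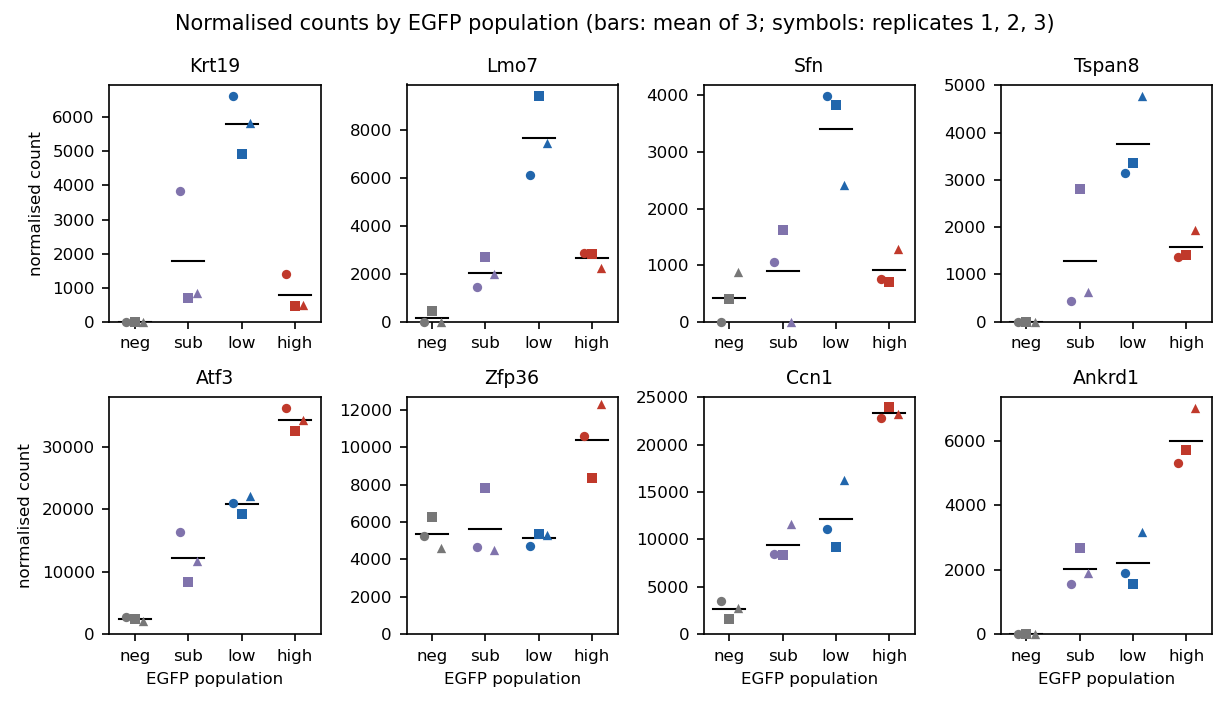
Normalised counts (y axis, linear from 0) of 8 genes in the neg, sub, low and high populations (x axis), with 1 symbol per library and a bar at the mean of 3. Krt19, Lmo7, Sfn and Tspan8 are highest in low (Krt19 means 5795 in low and 782.9 in high), whereas Atf3, Zfp36, Ccn1 and Ankrd1 are highest in high.

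Lmo7, which encodes a LIM-domain protein of adherens junctions that binds actin regulators, had the second pattern of this kind. It read 2862, 2848 and 2248 in high and 6152, 9442 and 7464 in low, a mean 2.90-fold lower in high without overlap. The log2 difference was -1.52 (SE 0.27, adjusted p = 0.03 in the 6-library fit; adjusted p = 1 in the 12-library fit and in edgeR). Its adjusted p was 0.0653 to 0.163 when a library was left out of that fit and 0.0634 after quantile scaling. It was named because this fit called it, a choice made after values were seen.

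The genes that link the epithelial cortex, junctions and basement membrane were mixed. Of 24 actin cytoskeleton genes 5 were lower (20.8%, against 7.4% of all 1947) and 2 higher (8.33%, against 7.81%), with a median of -0.15. Tpm1, a tropomyosin that coats actin filaments, read 1660, 1398 and 1768 in high and 4080, 5046 and 3023 in low, the widest separation of the list (log2 -1.31, SE 0.35, adjusted p = 0.295 in the 6-library fit). Lower with it were Actn1 (alpha-actinin; means 1802 ± 384.9 and 3485 ± 860.9), Ezr (ezrin, which ties actin to the apical membrane; 8338 ± 2211 and 13940 ± 4155), Myh14 and Cald1. The higher members were Vcl, vinculin of adhesion sites (5699 ± 535.7 and 3485 ± 1024), and Myl12a, a myosin light chain (3849 ± 450.7 and 2204 ± 536.4). Integrins and laminins also went both ways, with 3 of 15 lower (20%, against 7.4%) and 2 higher (13.3%, against 7.81%). Lama5 and Lamc1, subunits of basement membrane laminins, were lower, Lama5 at 1648, 1810 and 1205 in high against 4215, 4338 and 2620 in low. Lamc1 had means of 741.5 ± 273.6 and 2363 ± 336.7, and the integrin subunit Itgav 1843 ± 428.2 and 3566 ± 1169. Of these, Lamc1 reached the level limit only through low. Lamc3, another laminin chain, and the integrin subunit Itgb8 were higher, Lamc3 at 11343 ± 2681 against 7672 ± 779.1. Of 13 adherens junction and desmosome genes only Ppl, periplakin, was separated (lower, 7.69%, near the 7.4% of all 1947). Cdh1, E-cadherin, overlapped at 12684 ± 1762 and 15784 ± 2257. Among 17 tight junction and polarity genes Magi3, a scaffold protein, was higher and Cldn4, a claudin, lower. These were 5.88% each way, under the shares over all 1947 genes. Cldn4 read 1309, 267.8 and 150.3 in high and 1670, 1457 and 1641 in low, and reached the level limit only through low. No gene of this paragraph passed either limma fit.

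Heat shock chaperones were the list with the most lower genes relative to its size among lists of 5 or more genes. Of 14 members 5 were lower in high (35.7%, against 7.4% of all 1947), none was higher, and the median was -0.25. The 5 were the inducible HSP70 genes Hspa1a and Hspa1b, the HSP70 relative Hspa4, and both cytosolic HSP90 genes. Hspa1a and Hspa1b lie next to each other on chromosome 17 at chr17:34969190-34972156 and chr17:34956436-34959238 (minus strand, GRCm38). Their near-identity matters for the counts, and their promoters are shown because the 6-library fit called both genes in the same direction. These are the 250 bases before each RefSeq start (GRCm38.p6), chr17:34972157-34972406 and chr17:34959239-34959488, written 5′ to 3′ on the minus strand. Capitals mark a heat shock element, searched as GAANNTTC or TTCNNGAA on both strands:
Hspa1a: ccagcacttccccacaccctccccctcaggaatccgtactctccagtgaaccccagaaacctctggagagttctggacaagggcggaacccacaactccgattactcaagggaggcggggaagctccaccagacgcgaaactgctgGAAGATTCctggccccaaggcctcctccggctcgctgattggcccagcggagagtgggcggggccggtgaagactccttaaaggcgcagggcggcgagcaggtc
Hspa1b: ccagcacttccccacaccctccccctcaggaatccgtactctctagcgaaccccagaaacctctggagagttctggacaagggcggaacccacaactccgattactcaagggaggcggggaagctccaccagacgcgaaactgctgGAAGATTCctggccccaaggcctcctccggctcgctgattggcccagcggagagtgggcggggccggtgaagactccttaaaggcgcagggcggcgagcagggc
The windows were identical at 247 of 250 positions (98.8%), and the element began 104 bases before the start in both. The same letters were found before 14.5% of 27025 genes in the promoter table and before 5 of the 10 listed chaperone genes with an entry: Dnaja1, Dnajb4, Hspa1a, Hspa1b and Hsph1. A match is a description of the sequence and not evidence that a factor binds there.

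Hspa1a read 10177, 8792 and 11222 in high and 21571, 18678 and 22858 in low. Every low library exceeded every high library, and the mean was 2.09-fold lower in high (log2 -1.07, SE 0.17, adjusted p = 0.0169 in the 6-library fit; adjusted p = 0.676 in the 12-library fit). Hspa1b read 23702, 21433 and 17185 in high and 40705, 32980 and 37832 in low (log2 -0.85, SE 0.16, adjusted p = 0.039 in the 6-library fit; adjusted p = 0.293 in the 12-library fit; edgeR adjusted p = 0.00382). DESeq2, on the same 10 libraries as edgeR, did not call Hspa1b (adjusted p = 0.778). In the 6-library fit its call was lost under each other scaling. The adjusted p of Hspa1b there was 0.0518 for equal totals, 0.0692 for TMM and 0.12 for quantile scaling. Because reads of near-identical transcripts can be split between the 2 genes, their sum is the safer quantity, and it was 30837 ± 2787 in high and 58208 ± 5728 in low (SD, n = 3). In the sub population the means were 21887 for Hspa1a and 43148 for Hspa1b, near those of low. The HSP90 genes were closer between the gates. Hsp90aa1 read 78105, 63898 and 68011 in high and 81099, 103977 and 90758 in low. Hsp90ab1 had means of 46573 ± 2152 and 56115 ± 3424. Hspa4 was as far apart as Hspa1a in its means, 1121 ± 451.6 and 2442 ± 381.5, but passed neither limma fit. Hspa8, the constitutive HSC70, overlapped at 27211 ± 2499 and 26389 ± 3855. The summed level of the list's 20 genes was 210154 ± 9080 in high and 273880 ± 9836 in low, and it had no overlap between the gates.

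**Figure D3:**
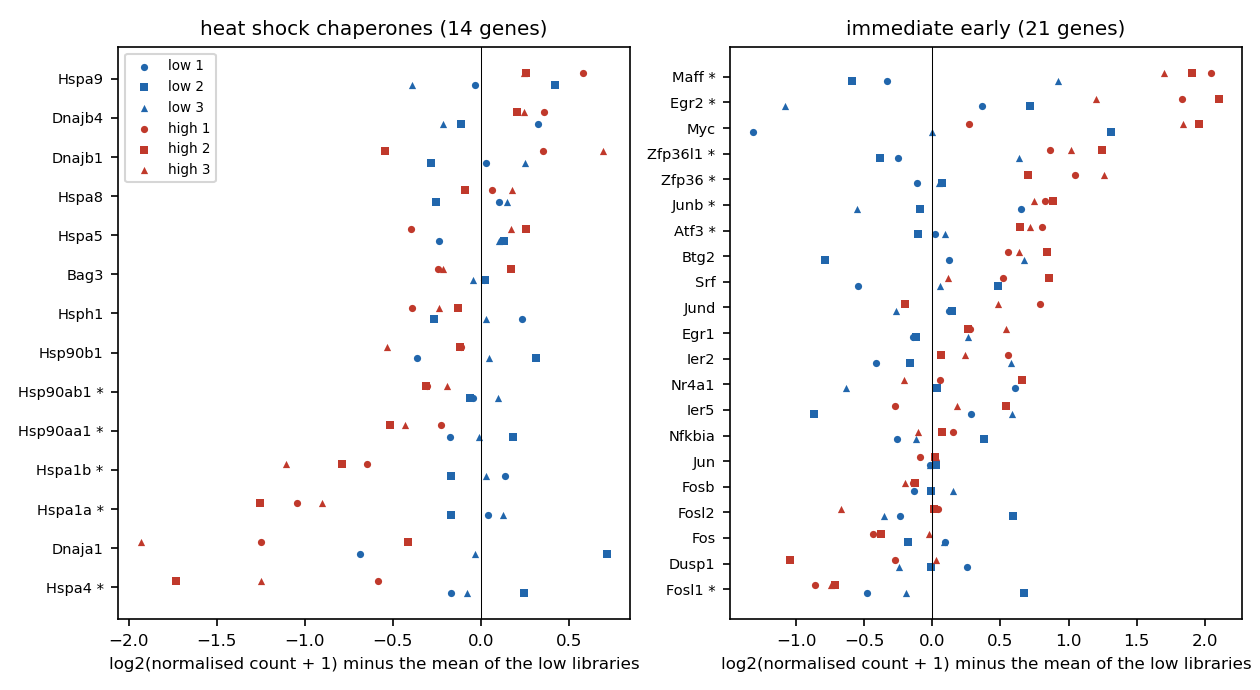
Log2(normalised count + 1) minus the mean of the low libraries (x axis) for the 14 heat shock chaperones and the 21 immediate early genes (y axis), with 1 symbol per library, red for high and blue for low; an asterisk marks genes whose groups do not overlap. The 5 marked chaperones lie left of 0, and 6 of the 7 marked immediate early genes lie right of it.

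Immediate early genes leaned the other way. Of 21 members 6 were higher in high (28.6%, against 7.81% of all 1947), 1 was lower, and the median was 0.36. Atf3, a stress-induced repressor of the ATF family, read 36297, 32550 and 34226 in high and 21046, 19279 and 22120 in low. The groups were tight and apart, with a mean 1.65-fold higher in high (log2 0.72, SE 0.14, adjusted p = 0.0402 in the 6-library fit; SE 0.20, adjusted p = 0.794 in the 12-library fit). With a library left out its adjusted p was 0.0713 to 0.254 in that fit. Atf3 lies at chr1:191170296-191218039 on the minus strand. Zfp36, which encodes tristetraprolin, a protein that destabilises AU-rich mRNAs, read 10579, 8357 and 12308 in high and 4733, 5383 and 5292 in low (log2 1.0, SE 0.22, adjusted p = 0.0831 in the 6-library fit). Its relative Zfp36l1 had means of 5406 ± 739.8 and 2747 ± 1137. Maff, a small MAF factor, read 3861, 3512 and 3047 in high and 743.6, 621.1 and 1774 in low, a mean 3.32-fold higher (log2 1.88, SE 0.47, adjusted p = 0.231 in the 6-library fit). With 1 library left out the fold of Maff ranged from 2.76 (without low 2) to 5.09 (without low 3). Egr2 had means of 2297 ± 686.7 and 769.6 ± 408.5, and Junb 10930 ± 537.4 and 6581 ± 2826. Egr2 had to differ to be kept, so its separation is a description and no support. Zfp36, Zfp36l1, Maff, Egr2 and Junb were thus separated by library without passing either fit.

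Jun, Fos and Fosb were not separated in this way. Jun read 45911, 49684 and 49739 in high and 48448, 49947 and 48392 in low, and its log2 difference of -0.02 turned to 0.01 after scaling to equal totals or by TMM. Fos had means of 30544 ± 4855 in high and 36955 ± 3833 in low, and Fosb 49305 ± 1289 and 55038 ± 5446. Fosl1, the FRA1 subunit of AP-1, was lower in high (1880, 2091 and 2049 against 2458, 5449 and 3000). It matches Ccdc85b over 1056 bases, and Ccdc85b overlaps it on the opposite strand. Whether reads of these genes were mixed depends on the use of strand in counting, which is not given in the sources used here. Summed with Ccdc85b the groups overlapped, at 2303, 2189 and 2859 in high and 2774, 5473 and 3071 in low. The separation of Fosl1 is thus uncertain if the strands were not told apart. Egr1 just overlapped, at 48410, 47853 and 58305 in high and 36304, 36762 and 47931 in low. The summed level of the list's 22 genes was 291374 ± 9634 in high and 256866 ± 15844 in low. A CArG box, the site of serum response factor, was found before 3 of the 17 listed genes with a promoter entry (Egr2, Srf and Zfp36) and before 1.62% of all genes in that table. A cyclic AMP response element, TGACGTCA, was found before 3 of the 17 (Btg2, Dusp1 and Maff), against 1.77% of all genes. An AP-1 motif, TGANTCA, was found before 1 (Zfp36l1), against 7.82%. Among the 1947 genes, 1495 had a promoter entry. Over these the shares were 1.54% for the CArG box, 3.41% for the cyclic AMP element and 6.35% for the AP-1 motif.

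YAP target genes included a pair with clear separation. Ccn1, a secreted matricellular protein, read 22781, 23924 and 23267 in high and 11123, 9242 and 16216 in low. The high libraries were nearly equal and all above low, a mean 1.91-fold higher (log2 0.98, SE 0.19, adjusted p = 0.0556 in the 6-library fit; adjusted p = 0.767 in the 12-library fit). Ankrd1, a cofactor with ankyrin repeats, read 5305, 5721 and 7026 in high and 1901, 1548 and 3162 in low, 2.73-fold higher (log2 1.51, SE 0.32, adjusted p = 0.0831 in the 6-library fit). Neither passed the threshold here, but Ccn1 passed it in the 6-library fit with equal totals, with the replicate block and without low 3. Ccn1 lies at chr3:145646976-145649981 (minus strand, GRCm38). The 250 bases before its RefSeq start, chr3:145649986-145650235, are shown with the TEAD motif in capitals, searched as GGAATG on both strands:
Ccn1: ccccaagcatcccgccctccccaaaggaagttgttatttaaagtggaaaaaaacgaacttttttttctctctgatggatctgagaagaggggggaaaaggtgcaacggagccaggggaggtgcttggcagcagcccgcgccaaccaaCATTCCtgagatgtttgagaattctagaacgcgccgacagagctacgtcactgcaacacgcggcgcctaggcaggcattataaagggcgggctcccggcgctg
The motif began 103 bases before the start. It was present before 5 of the 8 listed YAP targets with an entry (Amotl2, Ankrd1, Ccn1, Crim1 and Ptpn14) and before 14.4% of all genes in the promoter table. The heat shock element was also found before Ccn1 and Ankrd1. The motifs were chosen after values were seen.

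The remaining YAP targets did not share this pattern. Of 10 at this level 2 were higher (20%, against 7.81% of all 1947), 1 was lower (10%, against 7.4%) and 7 overlapped, with a median of 0.30. This median ranged from 0.12 to 0.45 over the other processing choices. Without high 1 or without low 2, 4 were higher, where the shares over all 1947 genes also rose, to 14.2% and 13.1%. Without high 2, low 1 or low 3, 2 were lower, where the shares over all 1947 genes were 12.6%, 15.2% and 11.7%. The lower gene was F3, tissue factor, at 1466 ± 159.6 in high and 2226 ± 319.2 in low. Amotl2, a Hippo scaffold, overlapped at 2220, 2781 and 3734 in high and 1251, 2527 and 855.6 in low. Ccn2, the closest relative of Ccn1, fell short of the level limit, with 1280, 631.7 and 766.1 in high and 1679, 0 and 108.5 in low. Its values spread widely in low and gave no separation. The summed level of all 22 listed targets was 48284 ± 3170 in high and 32279 ± 3439 in low, and higher still in sub, 54259 ± 4565. Without Ccn1 and Ankrd1 the other 20 summed to 18942 ± 2037 in high and 17881 ± 1894 in low, with overlap between the gates. Of the 10 Hippo pathway kinases, adaptors and TEAD genes at this level none was separated, and the median was 0.06. Yap1 read 1092, 1657 and 1399 in high and 1146, 2324 and 209.6 in low. Of 14 matrix and matricellular genes 3 were higher (21.4%, against 7.81%): Ccn1, Fn1 (fibronectin; 19621 ± 1381 and 14085 ± 2901) and Timp2, an inhibitor of metalloproteinases (1813 ± 313 and 1082 ± 275.6).

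**Figure D4:**
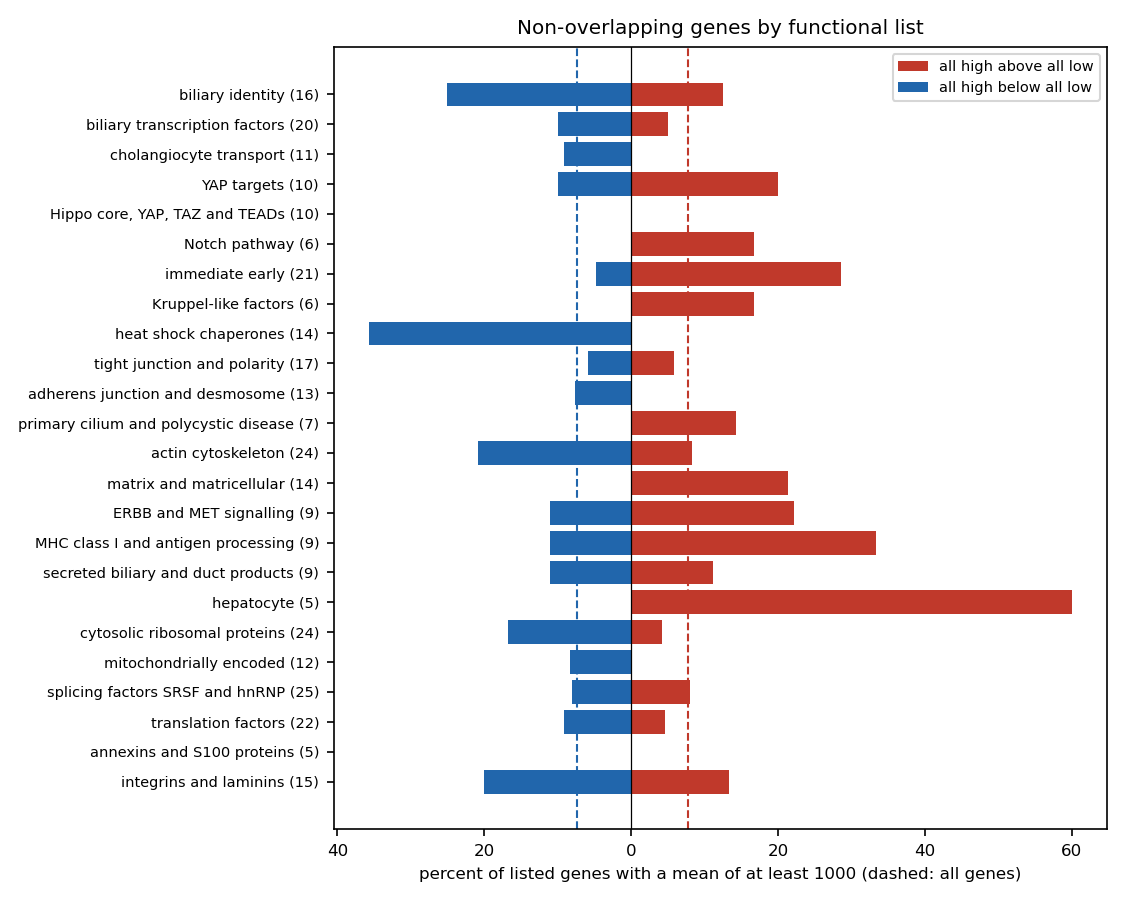
For each functional list with at least 5 genes at a mean of at least 1000 (number in brackets), the bars give the percent of those genes with all high libraries above all low (red, to the right) or all below (blue, to the left); dashed lines mark the same shares over all 1947 genes, 7.81% and 7.4%. Heat shock chaperones reach 35.7% to the left and immediate early genes 28.6% to the right, whereas the 60% of the hepatocyte list rests on 5 genes.

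Signalling and secretory genes gave small counts of separated genes, to be read against the 15.2% of all 1947 genes. In the Notch pathway 1 of 6 genes was separated, Adam10, the protease that cleaves Notch receptors (2112, 2492 and 2982 in high, 1327, 584.6 and 1156 in low). Hes1, a Notch target, overlapped widely, with 3681, 4203 and 4601 in high and 1132, 3372 and 6288 in low. Of 9 ERBB and MET signalling genes Errfi1 and Dusp6 were higher and the receptor Erbb4 lower. Errfi1, a feedback inhibitor of EGF receptors, read 11215, 11535 and 11372 in high and 9931, 8391 and 4666 in low. Dusp6, a phosphatase that acts on ERK, had means of 2096 ± 520.5 and 739.9 ± 235.6, and reached the level limit only through high. Among 20 biliary transcription factors Nfia was higher (2781 ± 564.4 and 1332 ± 653.8), 2 were lower, Arid5b among them (3273 ± 140.5 and 4848 ± 660.2), and 17 overlapped. Among 11 transport genes only Car2, carbonic anhydrase, was separated, at 238.8, 1007 and 0 in high and 1249, 2307 and 2153 in low. Car2 reached the level limit only through low. Cftr, the chloride channel of secreting ducts, lay under the level limit, at 555.9 ± 378.3 and 400.4 ± 183.7. Of 9 secreted products 1 was lower and 1 higher (11.1% each, near the shares over all 1947 genes), and neither passed either limma fit. Complement C3 had means of 21230 ± 5513 in high and 33001 ± 3728 in low, and ceruloplasmin, Cp, 23158 ± 2207 and 16598 ± 1738. Of 9 genes of MHC class I and antigen processing 3 were higher (33.3%, against 7.81%) and 1 was lower (11.1%, against 7.4%). The higher genes were H2-K1, H2-Q4 and the chaperone Pdia3, and the lower gene was Tapbp, tapasin. H2-Q4 reached the level limit only through high, so its separation is a description and no support.

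The 12 largest higher and 12 largest lower differences among separated genes above 0 in every library included some genes of these lists (Krt19, Cldn4 and Maff). All 12 lower genes had a mean under 1000 in high, and 11 of the 12 higher genes, all but Maff, had one under 1000 in low. They reached the level limit only through the group where they were high and so had to differ, and their p-values below are descriptions and no support. In several of them 1 library near 0 goes with the size. On the lower side Sfn, the epithelial 14-3-3 sigma protein, was the steadiest, at 751.1, 694.3 and 1291 in high and 3994, 3823 and 2425 in low (log2 -1.93, SE 0.45, adjusted p = 0.157 in the 6-library fit). Vcam1, an adhesion molecule for leukocytes, read 450.8, 892.4 and 558.6 in high and 1846, 4863 and 2185 in low (DESeq2 adjusted p = 0.0462; edgeR adjusted p = 0.679). Bcam, a laminin receptor, read 254.4, 490.2 and 36.75 in high and 1386, 1467 and 2944 in low (DESeq2 adjusted p = 0.0375; edgeR adjusted p = 1). Cd44, a hyaluronan receptor, read 734.7, 139.5 and 229.5 in high and 1705, 2085 and 1239 in low. Rbbp4, a histone-binding chaperone, read 675, 602.4 and 605.2 in high and 1954, 3719 and 1785 in low. These 5 genes were low in each high library. By contrast Sprr1a, a cornified envelope protein, ranged from 0.8167 to 912 in high against 1598 to 1888 in low, and the other 6 were Cldn4, Krt19, Anapc5, Plagl1, Mast4 and Atp2c1.

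On the higher side Mapkapk2, a kinase downstream of p38, read 2044, 1749 and 3951 in high and 772.6, 1020 and 379.7 in low (log2 1.85, SE 0.58, adjusted p = 0.377 in the 6-library fit). Ubap2 read 1991, 3450 and 2635 in high and 1067, 925.3 and 481.6 in low. Ror1, a receptor for WNT5A, read 1185, 1220 and 2323 in high and 668.7, 655.1 and 98.63 in low. In several others 1 low library was near 0. Abcd3, a peroxisomal transporter, had the largest log2 difference, 3.60, with 1084, 559.9 and 3.288 in low against 1399 to 2311 in high. With 1 library left out this difference ranged from 1.09 to 5.08. Its fold of means, 3.12, was below the 4.32 of Gm20716. Cul1, the cullin of SCF ubiquitin ligases, had 966.3, 522.5 and 23.01 in low against 1606 to 1714 in high. The others were Maff, Gm20716, Cep250, Zfp410, Kmt5b, Ip6k2 and Frmd6, and Gm20716 overlaps Adnp and Dpm1 on the same strand.

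A few genes were near 0 throughout 1 group. Dmbt1, which encodes a secreted scavenger-receptor glycoprotein of ducts, was 0 in all 3 high libraries and 5718, 4017 and 203.8 in low. Against a floor of 3 reads per library it was at least 1230-fold lower in high (edgeR adjusted p = 1.3e-10; DESeq2 adjusted p = 5.54e-08; limma adjusted p = 0.727 in the 12-library fit). It too reached the limit of 1000 only through low, as did Gm48754, and these p-values are descriptions and no support. Without low 1 this bound was 784-fold. Its mean in sub was 1912. It lies at chr7:131032053-131121630 on the plus strand, over Fgfr2 on the opposite strand, and the use of strand in counting is not given in the sources used here. Gm48754, an antisense RNA to Rala, was also 0 in high and 590, 1935 and 4007 in low, at least 809-fold lower, or 469-fold without low 3. Of 17 genes with transcripts at least 95% identical to it over 40% or more of its length, 13 were in the table, among them the protein-coding Tmem72. Summed with these 13 the groups overlapped, at 7227 ± 1103 in high and 8276 ± 2135 in low, and without Tmem72 at 3472 ± 1189 and 4612 ± 1301, so the difference of this gene alone is uncertain. Rn7s6, a copy of the signal recognition particle RNA, was called by edgeR (adjusted p = 0.000773), but it read 17863, 31270 and 0 in high, and the sum with its copies was 133051 ± 17926 in high and 135835 ± 16429 in low. AC160336.1, a long noncoding RNA locus, overlaps several predicted genes. It read 2927, 3960 and 1856 in high and 9525, 5905 and 5198 in low (edgeR adjusted p = 0.00315). It was not called by DESeq2 (adjusted p = 0.18) or by limma (adjusted p = 0.293 in the 12-library fit and 0.295 in the 6-library fit).

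Markers of other liver cells were examined beside these results. Of 23 hepatocyte markers 5 reached the level limit, and 3 of them were higher in high (60% of 5 genes, against 7.81% of all 1947): Ahsg (5018, 5118 and 5667 against 3344, 2583 and 3883), Apob (1695 ± 128.7 and 848.2 ± 295) and Trf (2242 ± 433.6 and 1402 ± 206). Ahsg, Apob and Trf encode secreted plasma proteins. Apob reached the level limit only through high, so its separation is a description and no support. Markers under the limit went both ways. Fga had means of 748.7 in high and 1244 in low, and Ttr had means of 1289 and 419.5. Alb, albumin, overlapped at 10123, 13041 and 12616 in high and 8181, 10201 and 15355 in low, and Hnf4a, a hepatocyte transcription factor, at 791.8 ± 537 and 1304 ± 558.5. The list summed to 21894, 26405 and 26054 in high and 17254, 17566 and 25394 in low, which overlapped. Apoa2, Apoc3, Serpina1a, Hp, Cyp3a11 and Fabp1 were at 0 in all 6 libraries. In such bulk samples fewer cells of a type and less RNA per cell cannot be told apart, and the part of hepatocyte RNA in the differences above was not tested. No endothelial, stellate, Kupffer cell, lymphocyte, mesothelial or neuroendocrine marker reached a mean of 1000. The endothelial list summed to 1312 ± 461.4 in high and 2380 ± 1220 in low, against 220034 ± 33688 in neg. The stellate list summed to 2144 ± 1107 and 2308 ± 1208, and the Kupffer cell list to 1089 ± 489.7 and 1354 ± 439.5. The mesothelial list summed to 1034, 1394 and 604.4 in high and 595.9, 550.6 and 536.7 in low, higher in every high library. Of its 7 genes 4 were at 0 in all 6 libraries, Gpm6a made up most of the sum (means 995.3 in high and 425 in low), and the defining marker Msln had means of 0.2884 in high and 136.1 in low. The list's part in the results above was not tested. The lymphocyte list summed to 226.6 ± 286.2 in high and 51.15 ± 52.66 in low, and the neuroendocrine list to 105.7 ± 170.3 and 254.5 ± 218.7.

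**Figure D5:**
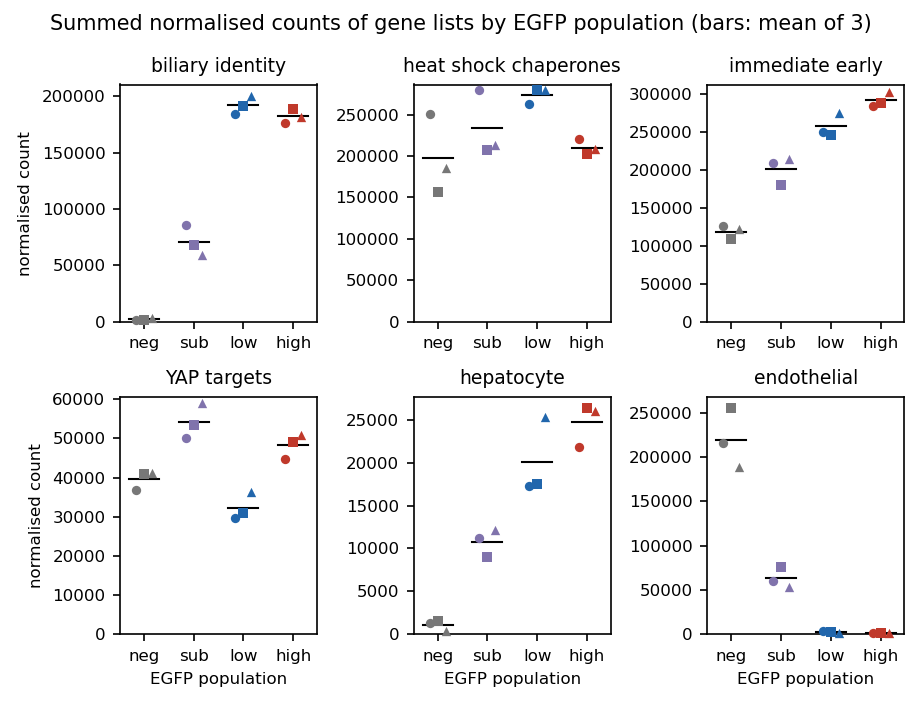
Summed normalised counts of 6 gene lists (y axis, linear from 0) in the neg, sub, low and high populations (x axis), with 1 symbol per library and a bar at the mean of 3. The heat shock sum is lower in every high library than in every low library and the immediate early and YAP target sums are higher (the YAP sum mainly through Ccn1 and Ankrd1), while the endothelial sum is small in both gates beside neg.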

How the data were processed

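The authors deposited normalised counts (a signal for each gene in each library) made with Salmon and DESeq2 1.26.0 on mm10, per the submitters' processing notes; RNA from sorted cells was converted with a stranded total-RNA kit for small inputs, per the labels' protocols. In every column 100% of values above 0 were whole multiples (tolerance 0.001) of the value of 1 read, so reads were recovered by division. Count tests (edgeR 4.0.16, quasi-likelihood; DESeq2 1.42.0) used 10 libraries: in high 2 and sub 3 a read was worth 1.01 and 0.997, too close to 1 for the recovery to be checked, and they were left out. Salmon estimates counts, so recovered reads may be rounded estimates. No molecular identifiers are named in the labels, and floors cover counting error only.

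The test of the design was limma 3.58.1 in R 4.3.3 (lmFit, eBayes with a variance trend, two-sided, Benjamini-Hochberg) on log2(normalised count + 1) of all 12 libraries, without a replicate term, over the 16128 genes with a mean of at least 10. This scale understates changes of low genes. Non-overlap was counted without a p. The members and the gene lists were chosen with earlier results of these data known. Named genes were non-overlapping and abundant list members, the 12 largest differences in each direction among separated genes above 0 in all 6 libraries, genes at the floor of 3 reads in 1 group, edgeR calls, and 11 fixed genes; calls of the 6-library fit were added after values were seen. A few genes that this rule names are not reported here. Positions are from GENCODE M21 (52258 of 54227 symbols matched) and promoters from RefSeq, GRCm38.p6. The steps were tested on simulated data, on which the 12-library fit had little power at the spread of the real libraries.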

Additional observations from a re-analysis of the deposited data

How the results depend on the processing

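With the 12-library limma test, 0 genes also passed at pseudocounts of 0.5 and 5, a minimum mean of 100, each of the 3 other scalings and a fit of the high and low libraries alone. No filter and array weights each gave 1 gene, a minimum mean of 1000 over high and low gave 1 (Gm48754), and no variance trend gave 22. Limma on the 6 high and low libraries at a mean of at least 1000 gave 5, edgeR 74 and DESeq2 678. Leaving out 1 library gave 0 (without low 2) to 35 (without high 2), with none among the 1947 genes. Limma on the 10 libraries of the count tests, chosen after seeing the data, gave 60. In the 6-library fit, also after seeing the data, equal totals gave 5 genes (Ccn1 in place of Hspa1b), TMM 4 (without Hspa1b), quantile scaling 3 (without Hspa1b and Lmo7), and leaving out 1 library 0 to 3.

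By the correlation of their deviations the replicate numbers, whose column suffixes recur in all 4 populations and may or may not mark animals, did not pair the libraries. Deviations of same-numbered high and low libraries correlated at 0.056, -0.019 and 0.016 over 1947 genes. With the replicate block the 12-library test gave 1 gene (Hspa1b) and the 6-library fit 6, adding Ccn1. Counting genes whose 3 same-numbered differences had the same sign, the form of the block for non-overlap, gave 323 higher and 308 lower.

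Non-overlapping genes numbered 236 higher and 248 lower at a minimum mean of 500 and 76 and 76 at 2000. Leaving out 1 library gave 224 to 276 higher and 223 to 296 lower. Other scalings gave 154 to 166 higher and 135 to 137 lower, and put the median log2 difference of the 1947 genes at 0.04 to 0.05, against 0.02 as deposited. Heat shock chaperones had 5 lower genes under equal totals and TMM and 4 under quantile scaling, and immediate early genes 6 or 7 higher. With 1 library left out, lower genes numbered 5 to 7 among heat shock chaperones and 5 to 9 among actin cytoskeleton genes. Immediate early genes then had 6 to 9 higher. Over all processing choices the list medians were -0.29 to -0.19 for heat shock, 0.28 to 0.49 for immediate early and -0.22 to -0.02 for actin genes.

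Of the named genes, 9 with overlapping groups changed sign. Leaving out 1 library in turn, the log2 differences ranged from -0.03 to 0.45 for Sox9, -0.15 to 1.08 for Hes1 and -0.08 to 0.38 for Alb, each lowest without low 1. They ranged from -0.08 (without low 2) to 0.13 for Hspa8, which was -0.01 without high 3, and from -0.26 (without low 3) to 1.47 for Yap1. Krt7 ranged from -0.76 to 0.14 and Rn7s6 from -7.2 to 0.27, both highest without high 3. Cftr ranged from -0.17 (without high 2) to 0.91, was -0.1 without low 1, and stood at -0.17 in edgeR and in the 10-library limma fit and at -0.19 in DESeq2. Jun was 0.01 under equal totals and TMM and 0.02 without high 1. The causes were not tested. With 3 libraries a group, differences under the spread between libraries were not detectable.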

Other observations

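In genes of general cell functions the counts of separated genes were compared with those over all 1947 genes at this level, 7.4% lower and 7.81% higher in EGFP high than in low. Of 24 cytosolic ribosomal protein genes with a mean of at least 1000, 4 had all high libraries below all low libraries (16.7%), 1 had all above (4.17%), and the median log2 difference was -0.15. Rpl4 read 2247, 2631 and 2947 in high and 3944, 5555 and 5627 in low. Rplp1 had means of 1268 ± 171.3 (SD, n = 3) in high and 2727 ± 731.9 in low. Ribosomal protein genes have many processed pseudogenes, and summed with their near-identical copies Rpl4 stood at 2609 ± 351.1 in high and 5042 ± 951.8 in low. The summed level of all 88 listed genes was 87033 ± 10096 in high and 91022 ± 14329 in low, within the spread of the libraries.

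Of 25 splicing factors 2 were higher (Hnrnpc and Hnrnpul1) and 2 lower (Hnrnpl and Hnrnpm), 8% each way and near the share over all genes. Lower genes numbered 3 under TMM and 5 under quantile scaling. All 31 listed genes summed to 95969, 98332 and 92148 in high and 100122, 104080 and 116865 in low. This sum was lower in every high library than in every low library. Hnrnpm read 1414, 1892 and 2389 in high and 3372, 4083 and 3482 in low, and Hnrnpul1 read 2776, 2681 and 1831 in high and 1176, 1196 and 1502 in low. Of 22 translation factors Eif4g3 was higher and Eif5b and Eif6 were lower, with Eif5b, a factor of ribosomal subunit joining, at 8620 ± 1085 and 12480 ± 2245. Of 12 mitochondrially encoded genes mt-Nd1 was lower (10593 ± 411.9 and 12872 ± 1846), and the list summed to 799762 ± 53600 in high and 801269 ± 18855 in low. None of these genes passed an adjusted p of 0.05 in either limma fit.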
